A study of Mus musculus with 39 samples.

Results

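The 20S core and the 19S, PA28 and PA200 regulatory particles of the mouse proteasome, with their assembly chaperones and inhibitor, were followed across oocytes, 2-cell embryos, clones and donor cells. Members were chosen by gene symbol: every probe that mapped to a RefSeq gene whose symbol begins with Psma, Psmb, Psmc, Psmd, Psme, Psmf or Psmg was taken. This gave 68 probes of 48 genes, out of 16535 named genes on the array, and all 48 were among the 16286 named genes tested. Counts below are over 46 of the 48, the subunit, chaperone, activator and inhibitor genes; Psmc3ip and Psme3ip1 share the prefix but encode other proteins and are given apart. Of 51 listed members, Psma8, Psmg4 and Psme2b were not analysed here.

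The series compared gene expression of 2-cell embryos made by in vitro fertilization with that of embryos cloned from cumulus cell nuclei, on single-colour Agilent arrays, with 39 arrays in 7 groups. All oocytes, embryos and donor cells came from (B6xDBA/2)F1 mice, and the RNA was amplified in 2 rounds. OC were 7 pools of oocytes at metaphase II, and IVF were 6 pools of 2-cell embryos taken 24 h after insemination. TSA(–) were 8 pools of clones taken 24 h after activation, and TSA(+) were 6 pools of clones treated with 5 nM trichostatin A for 8 h from activation. Spi-C 1.0 and Spi-C 0.1 were 4 pools each of clones injected with Spi-C mRNA at 1.0 or 0.1 mg/ml at the pronuclear stage. The series holds no clones injected without Spi-C mRNA, so injection itself and Spi-C mRNA cannot be told apart. Cumulus were 4 samples of 500 donor cells. Each pool held 10 oocytes or embryos, so that spread between single embryos could not be seen.

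The proteasome is the main protease that removes ubiquitin-tagged proteins, and in the early embryo it takes part in clearing maternal proteins around zygotic genome activation (ZGA). Its core is a stack of alpha and beta rings, of which some beta subunits cut proteins, and interferon can bring in inducible forms of these. Because a working particle needs all of its constitutive subunits, their transcripts are often regulated together.

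Values are log2 of the processed scanner signal minus the 75th percentile of the array, and a gene is represented by its brightest probe, so that levels of different genes cannot be compared. The arrays did not have equal signal: the median 75th percentile by group was OC 392, IVF 1116, TSA(–) 1457, TSA(+) 1377, Spi-C 1.0 2398, Spi-C 0.1 2582 and Cumulus 944. The median share of probes well above background by group was OC 57.6%, IVF 73.3%, TSA(–) 72.3%, TSA(+) 72.1%, Spi-C 1.0 73.2%, Spi-C 0.1 71.6% and Cumulus 63.0%. Of the 46 members, 41 were well above background on every OC array, 45 on every IVF array and 45 on every Cumulus array, and all 46 on every array of the 4 clone groups. The share of all genes that met this on every array was, by group, OC 58.9%, IVF 79.3%, TSA(–) 75.2%, TSA(+) 77.6%, Spi-C 1.0 80.0%, Spi-C 0.1 78.7% and Cumulus 70.7%. In OC, Psmb8 and Psmd13 were well above background on 0 of 7 arrays, Psmb10 on 2, Psmb9 on 3 and Psmb11 on 4. Psmd13 was so on 4 of 6 IVF arrays and Psmb11 on 1 of 4 Cumulus arrays. The adjusted p-values are from limma over all 39520 probes tested, with a gene called at an adjusted p under 0.01, and they measure only the spread between these pools. In pooled samples, fewer cells of a type and less RNA per cell cannot be told apart.

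OC, IVF and TSA arrays were read on 1 scanner model and software version, and Cumulus and Spi-C arrays on another. No Cumulus array shared a slide or scan day with an IVF array, and no Spi-C array did with a TSA(–) array. Group, scanner, slide and scan day therefore cannot be told apart when Cumulus is compared with IVF or Spi-C with TSA(–). The comparisons of TSA(–) and TSA(+) with IVF share the 6 IVF arrays, and those of the Spi-C groups with TSA(–) share the 8 TSA(–) arrays, so they are given side by side and their likeness is not measured. The median of all genes also moved with the scaling. Relative to the 75th percentile it was -0.70 for IVF minus OC and -0.15 for Cumulus minus IVF, against -1.43 and 0.74 with arrays aligned on their medians (median centring) and -0.18 and 0.14 with quantile normalization. For TSA(+) minus IVF it was -0.18, 0.05 and -0.00396 under the same 3 scalings, for TSA(+) minus TSA(–) -0.03, 0.15 and 0.05, for Spi-C 1.0 minus TSA(–) 0.08, -0.13 and -0.00635, and for Spi-C 0.1 minus TSA(–) 0.08, -0.06 and 0.03.

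The sample labels were checked with marker genes. All 7 oocyte markers measured were well above background on every OC array and 1 on every Cumulus array. All 6 markers of the 2-cell embryo were called higher in IVF than in OC. All 8 cumulus cell markers were well above background on every Cumulus array. So were 3 of these 8 on every OC array and 5 on every IVF, TSA(–) and TSA(+) array. In Spi-C 1.0 and Spi-C 0.1, 7 and 6 were so on every array. Of 6 leukocyte markers, 5 were well above background on every Cumulus array, 4 on every IVF array and 0 on every OC array, with Laptm5 on none in Cumulus. Their summed level, relative to the 75th percentile, was 32.1, 44.3, 108 and 113 in the 4 Cumulus samples. It ranged from 1.15 to 8.46 in IVF (median 1.32) and from 0.066 to 0.225 in OC (median 0.0963). The Lyz2 probe gave 83.1% of the summed signal in Cumulus, so the sum there mostly follows that probe and gives no share of transcripts. The 3 endothelial markers summed to 2.41, 3.35, 3.36 and 3.76 in Cumulus, and all 3 were well above background on every array there. Their sum ranged from 0.647 to 1.04 in IVF (median 0.794) and from 3.70 to 6.02 in OC (median 4.85). Cumulus minus IVF had all 7 oocyte markers lower, 6 of 8 cumulus cell markers higher, 5 of 6 leukocyte markers higher and 1 lower, and 1 of 3 endothelial markers higher and 2 lower. Leukocytes also express the inducible subunits, and the part of these cells in the Cumulus results below was not tested. The Spic probe had a mean of 2.05 in TSA(–), 1.48 in Spi-C 1.0 and 1.57 in Spi-C 0.1, against 2.99 in TSA(+) and 3.94 in IVF, and all TSA(+) arrays lay above all TSA(–) arrays. The probe was thus lower in both injected groups than in TSA(–), and their injection rests on the sample labels, not on these arrays. The mRNA was made from a full-length Spic cDNA, and where the probe lies on it was not analysed here.

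The median of the 46 members on each array ranged from 2.17 to 2.98 in OC, from 1.56 to 1.91 in IVF, from 1.95 to 2.28 in TSA(–) and from 1.88 to 2.07 in TSA(+). It was 1.99, 2.01, 2.02 and 2.15 in Spi-C 1.0, 1.77, 1.92, 1.96 and 2.02 in Spi-C 0.1, and 3.09, 3.13, 3.40 and 3.69 in Cumulus. All Cumulus arrays lay above all others, and all OC arrays lay above all IVF arrays. All TSA(–) arrays lay above all IVF arrays, while TSA(+) overlapped IVF by its lowest array. The median of a list on an array depends on the scale of the array, and the differences between groups follow.

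Between oocyte and fertilized 2-cell embryo, most members changed, in both directions. The alpha ring was mostly lower in IVF under each of the 3 scalings, and Psmb9 and Psmb10 were higher, as was Psmb8 except with normexp; the non-ATPase subunits of the 19S particle were mostly lower under 2 scalings and split under quantile normalization. By limma, 16 of 46 members were higher in IVF (27.9% of all genes were called higher) and 25 were lower (44.2% of all genes were called lower). The median difference was -0.77 over members and -0.70 over all genes. Of the alpha subunits 5 of 7 were lower and 1 higher, and of the non-ATPases 7 of 11 were lower and 2 higher. Of the assembly chaperones 5 of 6 were lower and 1 higher, though the lower call of Psmd10 was lost in some alternatives, given below. Of the constitutive beta subunits without a catalytic site, 1 of 4 was higher and 2 were lower. Of the ATPases, 3 of 6 were higher and 3 lower. All 4 inducible and thymic beta subunits were higher, or 3 of 4 under either other scaling. With normexp, Psmb8 (0.10, adjusted p = 0.686) and Psmb11 (0.31, adjusted p = 0.287) lost their calls. The split depended on the scaling. It was 12 higher and 26 lower with median centring. With quantile normalization it was 20 higher and 15 lower, and the members' median was 0.15. Shares of all genes are given for the 75th percentile only, so these counts cannot be set against them. Relative to the median of all genes, members lay at -0.07, -0.07 and 0.33 under the 3 scalings. Under quantile normalization the non-ATPases were split 3 higher and 4 lower, the alpha ring 1 higher and 4 lower, the ATPases 3 higher and 0 lower, and the activators 4 higher and 0 lower against 2 and 1 relative to the 75th percentile. Within the 2 slides that held both groups, the members' median was -0.96, with all genes at -0.59, and -0.82, with all genes at -0.75. Of 15 subunit genes with several probes, Psmd12, Psmd14 and Psmf1 had probes called in opposite directions in this comparison, and 0 did in the others. The 2 higher non-ATPases were Psmd12 and Psmd14; Psmd12, at 0.92 (adjusted p = 8.00e-07), turned to -0.47 (adjusted p = 0.00322), called lower, with the mean of its probes, and lost its call with median centring (0.20, adjusted p = 0.248). Psmd13, at 0.68 (adjusted p = 0.0673), turned to a called -1.15 (adjusted p = 1.71e-09) with normexp. As its probe was well above background on no OC array, neither size nor direction is fixed by these arrays.

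In donor cells the constitutive core was higher than in IVF throughout. All 7 alpha subunits, all 7 constitutive beta subunits and all 6 ATPases were called higher in Cumulus, and this held under all 3 scalings. By limma, 35 of 46 members were higher in Cumulus (29.9% of all genes) and 7 were lower (34.5% of all genes). The members' median difference was 1.83, against -0.15 over all genes, a gap of 1.97 that was 1.97 with median centring and 1.68 with quantile normalization. The 7 lower members were Psmb11, Psmd3, Psmd5, Psmd9, Psme3, Psme4 and Psmf1, and with median centring 3 were lower. The share of all genes is not given with median centring, so this count cannot be set against it. Scanner, slide, scan day and cell number differ between these groups as well as cell type.

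**Figure D1:**
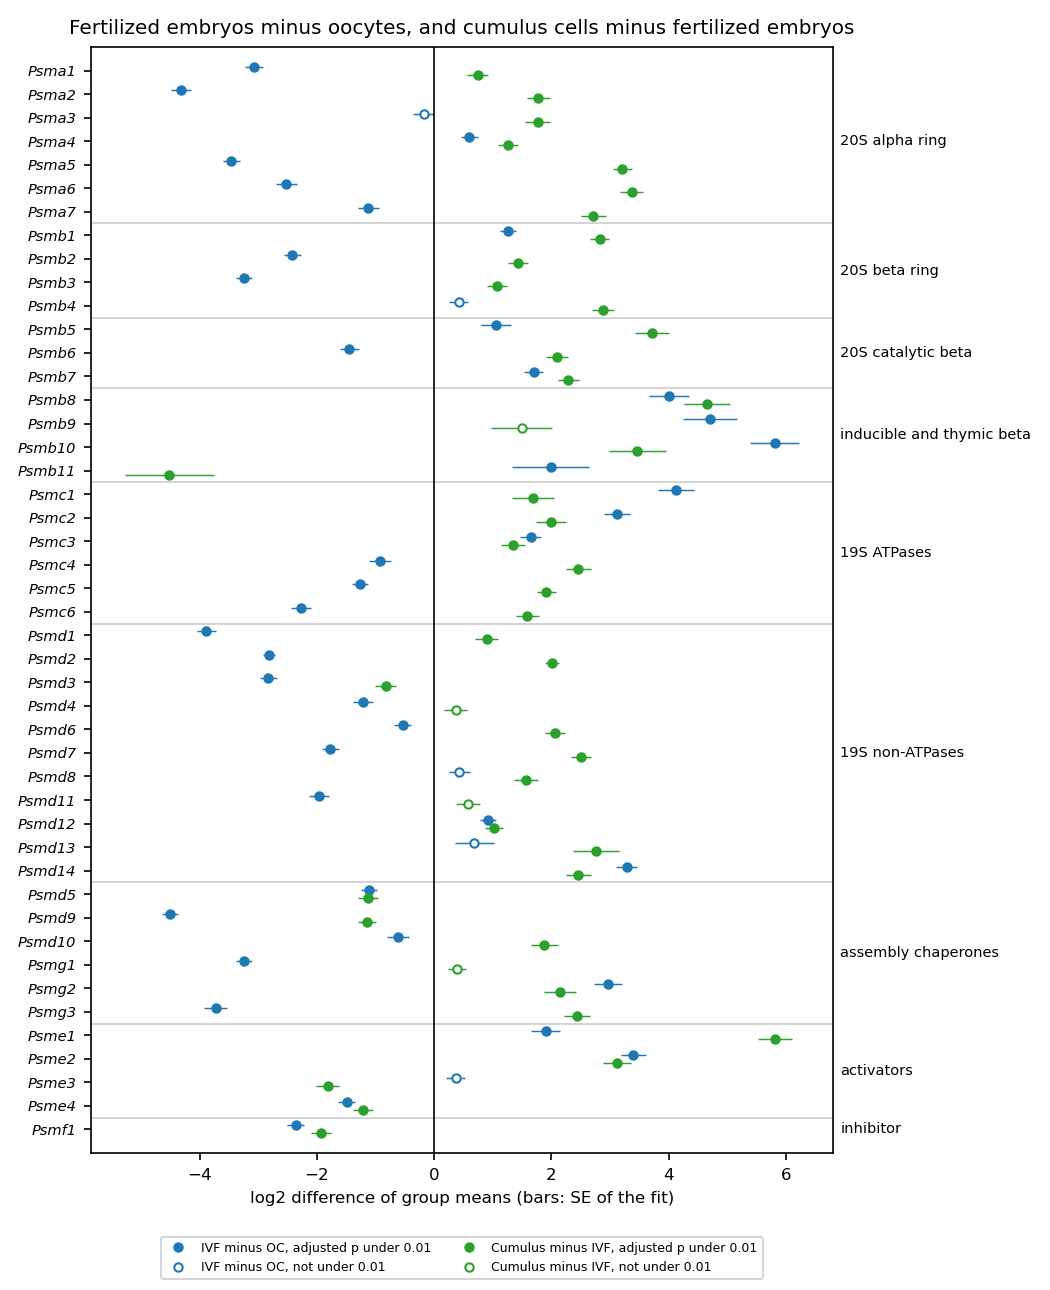
Log2 differences (horizontal axis) of IVF minus OC and of Cumulus minus IVF for the 46 members (vertical axis, grouped by role), with the standard error of the fit; filled points have an adjusted p under 0.01. The core and ATPase subunits lie to the right in Cumulus minus IVF, and the members are spread to both sides in IVF minus OC.

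In clones, more members were higher than in IVF than were lower. Higher calls fell in the alpha ring, the beta ring, the non-ATPases and the activators, among others. None of the inducible and thymic beta subunits was called under the 3 scalings. The fit estimated the spread of each probe with OC included, where none of these subunits was well above background on every array. Their lack of calls therefore does not show that clones and IVF are alike. Role groups were not compared by a test. By limma, 19 of 46 members were higher in TSA(–) (10.6% of all genes) and 3 were lower (13% of all genes), with a median of 0.48 against -0.10 over all genes. In TSA(+), 19 were higher (10.8% of all genes) and 3 were lower (13.7% of all genes), with a median of 0.48 against -0.18. The alpha ring had 5 of 7 higher and 0 lower in either clone group under all 3 scalings, and the non-ATPases 6 of 11 higher and 0 lower, or 7 under some scalings. The beta subunits without a catalytic site had 2 of 4 higher in TSA(–) and 3 in TSA(+). For Psmb2, the TSA(+) call (0.57) was lost with replicate number as a block (adjusted p = 0.0115). It was also lost without IVF replicate 3, 4 or 6, or TSA(+) replicate 2, 4 or 6. The activators had 2 of 4 higher in TSA(–) and 2 in TSA(+), where 1 was lower. The ATPases had 1 of 6 called higher in TSA(–) (Psmc5), and 0 called by limma in TSA(+). In TSA(+), 2 had an unadjusted p under 0.05 and 1 was called by Tukey's HSD (Psmc5). With quantile normalization 3 and 2 were higher. The TSA(–) call of Psmc5 (0.55) was lost with the mean of its probes (adjusted p = 0.0158) and with replicate number as a block (adjusted p = 0.0209). It was also lost without IVF replicate 4 (0.49). In TSA(+), median centring called Psmc3 (0.84, adjusted p = 0.00184) and Psmc5 (0.71, adjusted p = 0.0032), and normexp called both too. Of the inducible and thymic group, limma called 0 of 4 in either clone group under the 3 scalings, Tukey's HSD 0 and 0, while with normexp Psmb10 was called higher in both (0.66, adjusted p = 0.00275, and 0.95, adjusted p = 0.000107); 0 in TSA(–) and 1 in TSA(+) had an unadjusted p under 0.05. The gap between the members' median and that of all genes was 0.57 for TSA(–) and 0.66 for TSA(+), and 0.60 and 0.53 with quantile normalization. With median centring, 1 member was lower in TSA(+). Shares of all genes are not given under the other scalings, so counts under them cannot be set against the shares above. Within the 3 slides that held both groups, the members' median was 0.32 to 0.37 for TSA(–) and 0.33 to 0.60 for TSA(+), with all genes at -0.20 to -0.08 and -0.23 to -0.07.

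**Figure D2:**
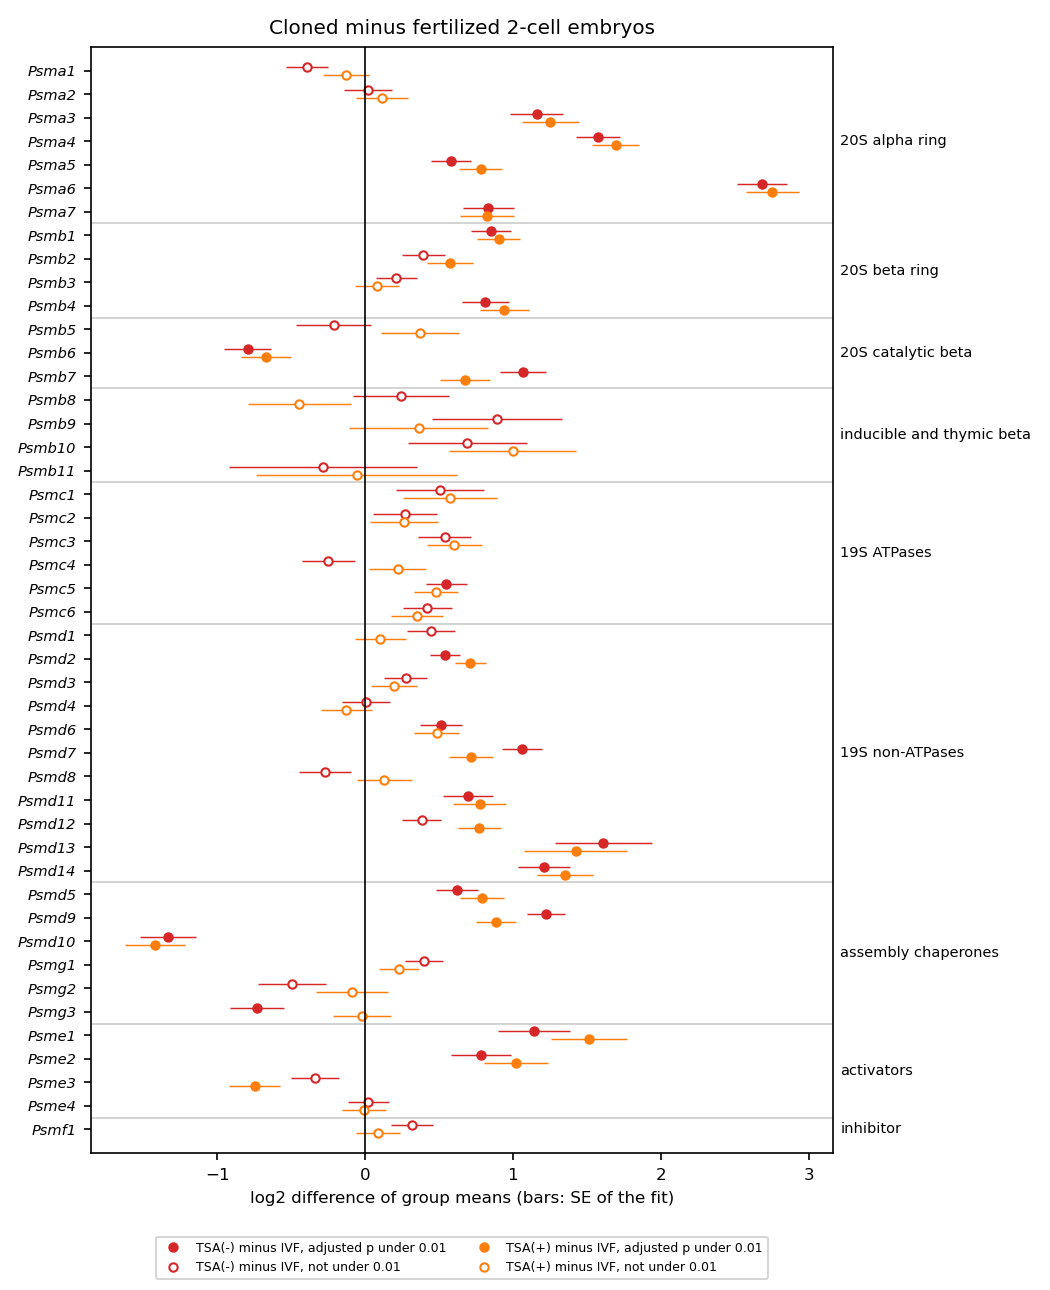
Log2 differences (horizontal axis) of TSA(–) minus IVF and of TSA(+) minus IVF for the 46 members (vertical axis, grouped by role), with the standard error of the fit; filled points have an adjusted p under 0.01. Psma6 lies farthest to the right and Psmd10 farthest to the left in both.

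The arrays of treated and untreated clones had members' medians of 1.88 to 2.07 in TSA(+) and 1.95 to 2.28 in TSA(–), which overlapped. For TSA(+) minus TSA(–), limma called 0 members higher (0.0675% of all genes) and 0 lower (0.0368% of all genes), 11 had an unadjusted p under 0.05, and a one-way test with Tukey's HSD called 1, Psmg3. The members' median difference was 0.07, against -0.03 over all genes, a gap of 0.10 that was 0.10 with median centring and -0.000339 with quantile normalization. Psmg3 differed by 0.71 (SE 0.183, adjusted p = 0.0483). A p-value above the limit does not show that the groups are alike.

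In clones injected with Spi-C mRNA, members went both ways against TSA(–), as all genes did. Psmb6, Psmd8, Psmd11 and Psme3 were called higher at either concentration, and Psma1, Psmb2, Psmb10, Psmf1 and Psmg1 lower. Psmd8, Psme3 and Psmg1 kept these calls in every alternative run, and the other 6 lost them in at least 1, as given gene by gene below. The injected clones were read on another scanner model, and on other slides and scan days, than TSA(–). Slide or scan day as a block therefore cannot correct these comparisons, so keeping a call with these blocks is not a check of it. By limma, 6 members (13.0%) were higher in Spi-C 1.0 (8.8% of all genes) and 6 (13.0%) lower (7.62% of all genes). In Spi-C 0.1, 5 members (10.9%) were higher (8.6% of all genes) and 6 (13.0%) lower (7.69% of all genes). The members' median was 0.08 for Spi-C 1.0 and -0.03 for Spi-C 0.1, against 0.08 and 0.08 over all genes. The split moved with the scaling. With median centring it was 2 higher and 8 lower for Spi-C 1.0 and 2 and 7 for Spi-C 0.1. With quantile normalization it was 6 and 4 for Spi-C 0.1. Shares of all genes are not given under these other scalings, so these counts cannot be set against the shares above. The split also rested on single arrays. Without any 1 of the 4 Spi-C 1.0 arrays the count of higher members was 3. So it was for Spi-C 0.1 without replicate 1 or 3. Between the concentrations, limma called 0 members higher (0% of all genes) and 0 lower (0% of all genes), with 0 at an unadjusted p under 0.05 and 0 by Tukey's HSD.

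The 7 alpha subunits form the outer rings of the 20S core, which gate the entry of substrates. Psma6 ranged from 0.87 to 1.67 in OC (median 1.34), from -1.56 to -0.93 in IVF (median -1.06), from 1.26 to 1.76 in TSA(–) (median 1.49) and from 1.07 to 1.93 in TSA(+) (median 1.62). Psma6 was at 1.42, 1.43, 1.45 and 1.54 in Spi-C 1.0, at 1.22, 1.30, 1.33 and 1.46 in Spi-C 0.1 and at 1.77, 2.04, 2.34 and 2.58 in Cumulus. Every IVF array lay below every array of the other groups, while OC and the clones overlapped. The difference was -2.52 (SE 0.174, adjusted p = 1.07e-13) for IVF minus OC, 2.69 (SE 0.169, adjusted p = 8.69e-13) for TSA(–) minus IVF and 2.76 (SE 0.18, adjusted p = 2.63e-12) for TSA(+) minus IVF. Within the 3 slides shared with IVF, it was 2.20 to 2.82 for TSA(–) and 2.00 to 2.92 for TSA(+).

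Psma4 ranged from -0.14 to 0.68 in OC (median 0.04), from 0.57 to 0.92 in IVF (median 0.76), from 2.06 to 2.75 in TSA(–) (median 2.30) and from 2.00 to 2.63 in TSA(+) (median 2.52). Psma4 was at 2.71, 2.84, 2.87 and 2.94 in Spi-C 1.0, at 2.41, 2.79, 2.79 and 2.91 in Spi-C 0.1 and at 1.67, 1.70, 2.23 and 2.36 in Cumulus. All 14 TSA(–) and TSA(+) arrays lay above all IVF and OC arrays, and Spi-C 1.0 lay above IVF but overlapped TSA(–). The difference was 1.58 (SE 0.148, adjusted p = 2.54e-09) in TSA(–) and 1.70 (SE 0.158, adjusted p = 2.80e-09) in TSA(+), both against IVF, and 0.60 (SE 0.152, adjusted p = 0.000842) for IVF minus OC, where it was -0.13 (adjusted p = 0.498) with median centring and 0.36 (adjusted p = 0.0376) with the mean of its probes. For Spi-C 1.0 minus TSA(–) it was 0.53 (SE 0.129, adjusted p = 0.00366), and the call was lost without Spi-C 1.0 replicate 1 (0.53), Spi-C 1.0 replicate 3 (0.49) and Spi-C 1.0 replicate 4 (0.52), with median centring (0.31, adjusted p = 0.124) and with replicate number as a block (0.55, adjusted p = 0.0105).

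Psma2 ranged from 8.25 to 9.45 in OC (median 8.89) and from 4.48 to 4.85 in IVF (median 4.60). Psma5 ranged from 6.06 to 6.85 in OC (median 6.40) and from 2.80 to 3.38 in IVF (median 2.98). For both, all IVF arrays lay below all OC arrays. IVF minus OC was -4.32 (SE 0.169, adjusted p = 2.34e-19) for Psma2 and -3.46 (SE 0.142, adjusted p = 6.50e-19) for Psma5, and with quantile normalization -2.04 and -1.48, both still called. Psma5 was higher in TSA(–) and TSA(+) than in IVF, by 0.58 (adjusted p = 0.00176) and 0.78 (adjusted p = 0.000151). Psma7, the alpha4 subunit, was -1.12 (SE 0.178, adjusted p = 2.03e-06) for IVF minus OC, but 0.42 (adjusted p = 0.0488) with quantile normalization.

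Psma1 ranged from 7.12 to 8.20 in OC (median 8.08), from 4.64 to 5.05 in IVF (median 4.76) and from 4.27 to 4.59 in TSA(–) (median 4.37). Psma1 was at 3.73, 3.95, 4.02 and 4.18 in Spi-C 1.0 and at 3.87, 3.99, 4.01 and 4.09 in Spi-C 0.1. All IVF arrays lay below all OC arrays, and the Spi-C arrays lay below TSA(–) throughout. Between OC and IVF the difference was -3.07 (SE 0.149, adjusted p = 2.98e-17). Psma1 was at a difference of -0.44 (SE 0.104, adjusted p = 0.003) in Spi-C 1.0 and -0.42 (SE 0.104, adjusted p = 0.00478) in Spi-C 0.1 against TSA(–). The former call was lost without Spi-C 1.0 replicate 3 (-0.36) and Spi-C 1.0 replicate 4 (-0.43), and under quantile normalization (-0.35, adjusted p = 0.0168); the latter was lost without Spi-C 0.1 replicate 1 (-0.38), Spi-C 0.1 replicate 2 (-0.42) and Spi-C 0.1 replicate 4 (-0.41), and under quantile normalization (-0.29, adjusted p = 0.0494). Both were lost with replicate number as a block (-0.46, adjusted p = 0.0143, and -0.44, adjusted p = 0.0194).

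The 7 constitutive beta subunits form the inner rings, and Psmb5, Psmb6 and Psmb7 carry the chymotrypsin-like, caspase-like and trypsin-like sites. Psmb2, a subunit without such a site, ranged from 2.70 to 3.39 in OC (median 3.02), from 0.35 to 0.79 in IVF (median 0.63), from 0.80 to 1.33 in TSA(–) (median 0.93) and from 1.05 to 1.39 in TSA(+) (median 1.16). Psmb2 was at 0.31, 0.47, 0.51 and 0.56 in Spi-C 1.0, at -0.05, 0.34, 0.34 and 0.46 in Spi-C 0.1 and at 1.62, 1.65, 2.34 and 2.50 in Cumulus. Every IVF array lay below all OC and TSA arrays, and all Spi-C arrays lay below all TSA(–) arrays. The difference was -2.42 (SE 0.149, adjusted p = 8.47e-15) for IVF minus OC and 1.42 (SE 0.173, adjusted p = 2.21e-08) for Cumulus minus IVF. Against TSA(–) it was -0.53 (SE 0.118, adjusted p = 0.00166) in Spi-C 1.0 and -0.73 (SE 0.118, adjusted p = 5.33e-05) in Spi-C 0.1, and the former call was lost without Spi-C 1.0 replicate 3 (-0.48), and with replicate number as a block (-0.43, adjusted p = 0.0304). For IVF minus OC, Psmb3 was at -3.24 (adjusted p = 3.71e-18) and Psmb1 at 1.26 (adjusted p = 4.57e-09).

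The 3 catalytic subunits differed in direction between OC and IVF. Psmb5 ranged from -1.28 to 0.45 in OC (median -0.21), from 0.51 to 0.94 in IVF (median 0.58), from -0.17 to 1.21 in TSA(–) (median 0.25) and from 0.83 to 1.32 in TSA(+) (median 0.99). Psmb5 was at 0.76, 0.91, 1.02 and 1.04 in Spi-C 1.0, at 1.03, 1.14, 1.54 and 1.69 in Spi-C 0.1 and at 4.25, 4.28, 4.45 and 4.46 in Cumulus. The IVF arrays all lay above all OC arrays, all Cumulus arrays lay above every other array, and IVF overlapped the TSA(–), TSA(+) and Spi-C 1.0 clones but lay below all Spi-C 0.1 arrays. From OC to IVF it differed by 1.05 (SE 0.252, adjusted p = 0.000509), and 0.33 (adjusted p = 0.281) with median centring; Cumulus minus IVF was 3.72 (SE 0.293, adjusted p = 4.12e-12). Spi-C 0.1 minus TSA(–) was 0.92 (SE 0.214, adjusted p = 0.00275), with overlap between groups, and its call was lost without Spi-C 0.1 replicate 1 (0.85) and Spi-C 0.1 replicate 3 (0.80), and with median centring (0.79, adjusted p = 0.0173).

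Psmb6 ranged from 3.28 to 3.99 in OC (median 3.53), from 2.07 to 2.28 in IVF (median 2.16), from 1.00 to 1.76 in TSA(–) (median 1.33) and from 1.19 to 1.65 in TSA(+) (median 1.56). Psmb6 was at 1.73, 1.91, 1.96 and 2.02 in Spi-C 1.0, at 1.65, 1.75, 1.95 and 2.06 in Spi-C 0.1 and at 3.80, 3.90, 4.38 and 4.92 in Cumulus. Without exception, IVF arrays lay below all OC arrays and above all arrays of the clones. Against IVF, Psmb6 was at -0.79 (SE 0.159, adjusted p = 0.000306) in TSA(–) and -0.67 (SE 0.17, adjusted p = 0.00324) in TSA(+); the latter call was lost without TSA(+) replicate 4 (-0.61), and with median centring (-0.44, adjusted p = 0.0691). For IVF against OC the value was -1.45 (SE 0.164, adjusted p = 4.75e-09), and -0.32 (adjusted p = 0.0666) with quantile normalization. Against TSA(–), Psmb6 was at 0.54 (SE 0.126, adjusted p = 0.00265) in Spi-C 1.0, a call lost without Spi-C 1.0 replicate 1 (0.50) and Spi-C 1.0 replicate 2 (0.52), and at 0.49 (SE 0.126, adjusted p = 0.00595) in Spi-C 0.1, a call lost without Spi-C 0.1 replicate 1 (0.42), Spi-C 0.1 replicate 3 (0.46), TSA(–) replicate 1 (0.46), TSA(–) replicate 6 (0.48) and TSA(–) replicate 7 (0.44); both were lost with median centring and with replicate number as a block (by the latter 0.47, adjusted p = 0.0336, and 0.41, adjusted p = 0.0581).

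Psmb7 ranged from -3.70 to -2.77 in OC (median -3.30), from -2.19 to -1.11 in IVF (median -1.65), from -0.83 to -0.36 in TSA(–) (median -0.52) and from -1.14 to -0.75 in TSA(+) (median -0.92). Psmb7 was at -0.26, 0.39, 0.39 and 0.57 in Spi-C 1.0, at -0.55, -0.35, 0.10 and 0.50 in Spi-C 0.1 and at 0.49, 0.65, 0.77 and 0.84 in Cumulus. All IVF arrays lay above all OC arrays and below all TSA(–) arrays, and all Spi-C 1.0 arrays lay above all TSA(–) arrays. The difference was 1.70 (SE 0.161, adjusted p = 1.26e-10) for IVF minus OC (0.55 with normexp), 1.07 (SE 0.156, adjusted p = 4.76e-06) for TSA(–) minus IVF and 0.68 (SE 0.167, adjusted p = 0.00262) for TSA(+) minus IVF, where the call was lost without IVF replicate 4 (0.56). Spi-C 1.0 minus TSA(–) was 0.81 (SE 0.193, adjusted p = 0.00313), a call lost without Spi-C 1.0 replicate 2 (0.77), Spi-C 1.0 replicate 3 (0.71) and Spi-C 1.0 replicate 4 (0.77), with median centring (0.59, adjusted p = 0.0254) and with replicate number as a block (0.83, adjusted p = 0.0144).

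Psmb8, Psmb9 and Psmb10 are the interferon-inducible forms that take the place of Psmb5, Psmb6 and Psmb7, and Psmb11 is a thymic form of Psmb5. Psmb8 ranged from -7.76 to -6.31 in OC (median -7.25), from -4.01 to -1.90 in IVF (median -3.21), from -3.90 to -1.21 in TSA(–) (median -3.02) and from -4.18 to -3.01 in TSA(+) (median -3.60). Psmb8 was at -2.75, -2.63, -2.48 and -2.46 in Spi-C 1.0, at -3.91, -3.10, -3.03 and -2.81 in Spi-C 0.1 and at 1.30, 1.48, 1.60 and 1.66 in Cumulus. All IVF and clone arrays lay above all OC arrays, and all Cumulus arrays lay above all others. With no OC array well above background, the reported probe of Psmb8 has only a bound there, at least 16.0-fold higher in IVF as scaled here (adjusted p = 9.23e-12), and the other probe of Psmb8 was called higher by 3.17. With normexp background correction and an offset of 50, the difference was 0.10 (adjusted p = 0.686), so the bound and the call depend on the background correction. Cumulus minus IVF was 4.65 (SE 0.39, adjusted p = 9.84e-12).

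Psmb9 ranged from -7.10 to -3.03 in OC (median -5.26), from -1.41 to 0.34 in IVF (median -0.51), from -1.34 to 1.54 in TSA(–) (median 0.40) and from -0.65 to 0.30 in TSA(+) (median -0.30). Psmb9 was at 0.72, 0.92, 1.33 and 1.36 in Spi-C 1.0, at 0.91, 0.94, 0.99 and 1.03 in Spi-C 0.1 and at 0.67, 0.72, 1.06 and 1.29 in Cumulus. All OC arrays lay below all embryo and clone arrays, and all IVF arrays below all Cumulus arrays. IVF minus OC was 4.70 (SE 0.454, adjusted p = 1.89e-10), with 3 of 7 OC arrays well above background; with normexp it was 2.06, still called, so its size depends on the background correction. Cumulus minus IVF was 1.49 (SE 0.526, adjusted p = 0.0148), and became called without IVF replicate 1 (1.67), with median centring (2.38, adjusted p = 0.000163) and with normexp (1.38, adjusted p = 0.0004).

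Psmb10 ranged from -7.63 to -3.99 in OC (median -7.13), from -0.97 to -0.33 in IVF (median -0.61), from -0.69 to 0.65 in TSA(–) (median 0.12) and from -0.11 to 0.72 in TSA(+) (median 0.44). Psmb10 was at -1.13, -1.02, -0.73 and -0.73 in Spi-C 1.0, at -1.42, -1.39, -0.81 and -0.67 in Spi-C 0.1 and at 2.62, 2.65, 3.02 and 3.19 in Cumulus. All OC arrays lay below all others, all TSA(+) arrays lay above all IVF arrays, TSA(–) overlapped IVF, and all Spi-C 1.0 arrays lay below all TSA(–) arrays. Between OC and IVF the difference was 5.81 (SE 0.415, adjusted p = 2.39e-13), with 2 of 7 OC arrays well above background, and 2.26 with normexp, so its size is not fixed by these arrays. Against IVF, Psmb10 was at 0.69 (SE 0.403, adjusted p = 0.222) in TSA(–) and 1.00 (SE 0.43, adjusted p = 0.0823) in TSA(+), neither called, though both were with normexp (0.66, adjusted p = 0.00275, and 0.95, adjusted p = 0.000107). Against TSA(–), Psmb10 was at -0.997 (SE 0.212, adjusted p = 0.00109) in Spi-C 1.0 and -1.17 (SE 0.212, adjusted p = 0.000209) in Spi-C 0.1; the former call was lost with replicate number as a block (-0.92, adjusted p = 0.0135).

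Psmb11 ranged from -7.34 to -2.85 in OC (median -4.10), from -3.19 to -1.83 in IVF (median -2.65), from -4.13 to -1.84 in TSA(–) (median -2.67) and from -3.29 to -1.65 in TSA(+) (median -2.71). Psmb11 was at -3.03, -2.57, -1.96 and -1.65 in Spi-C 1.0, at -2.30, -2.09, -1.83 and -1.67 in Spi-C 0.1 and at -8.81, -8.36, -6.78 and -4.33 in Cumulus. All Cumulus arrays lay below all embryo arrays, and IVF overlapped OC and every clone group. Cumulus minus IVF was -4.52 (SE 0.762, adjusted p = 6.02e-06), with 1 of 4 Cumulus arrays well above background, and -1.61 with normexp; the direction held and the size did not. From OC to IVF it differed by 1.99 (SE 0.657, adjusted p = 0.0081); the call was lost without IVF replicate 1 (1.84), IVF replicate 2 (1.87), IVF replicate 3 (1.98), IVF replicate 5 (2.03), OC replicate 1 (1.67), OC replicate 5 (2.00) and OC replicate 6 (1.52), by the other scalings (1.26, adjusted p = 0.079, and 1.41, adjusted p = 0.0828), with normexp (0.31, adjusted p = 0.287) and by Tukey's HSD (adjusted p = 0.0518).

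**Figure D3:**
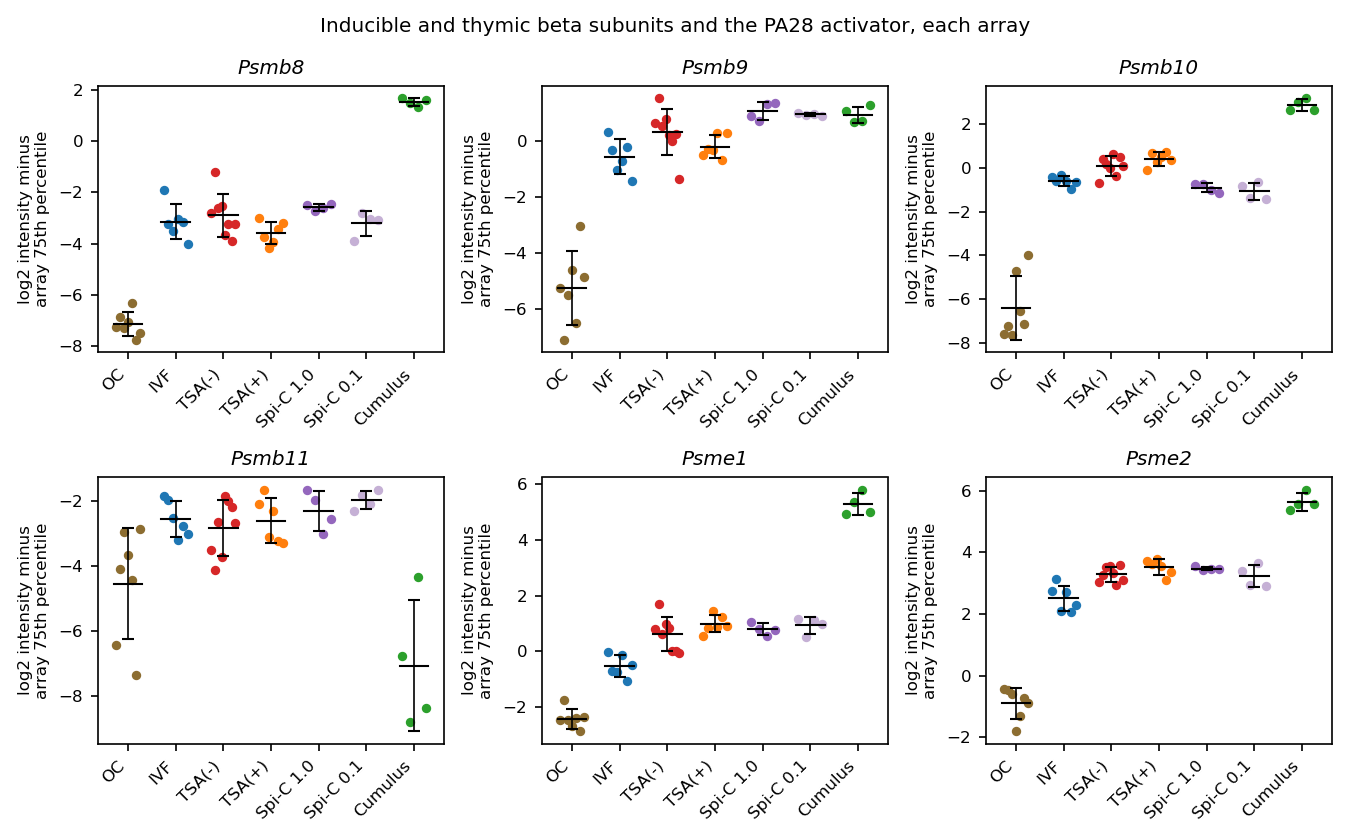
Levels of Psmb8, Psmb9, Psmb10, Psmb11, Psme1 and Psme2 on each array (points; log2 relative to the 75th percentile of the array) in the 7 groups, with group mean and standard deviation as bars. Psmb8, Psmb9 and Psmb10 rise from OC to IVF, and in Cumulus Psmb8, Psmb10, Psme1 and Psme2 lie above every other group.

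The 6 ATPases form the ring that unfolds substrates and opens the core. Psmc1 ranged from -2.94 to 0.56 in OC (median -1.28) and from 2.67 to 3.29 in IVF (median 2.94). Psmc5 ranged from 2.69 to 3.32 in OC (median 2.94) and from 1.41 to 1.94 in IVF (median 1.74). All Psmc1 arrays of IVF lay above all of OC, while those of Psmc5 lay below them. For IVF against OC the value was 4.12 (SE 0.305, adjusted p = 5.54e-13) for Psmc1 and -1.26 (SE 0.143, adjusted p = 5.07e-09) for Psmc5, with Psmc2 at 3.12 (adjusted p = 2.17e-13), Psmc4 at -0.92 (adjusted p = 5.84e-05) and Psmc6 at -2.27 (adjusted p = 6.98e-13). With quantile normalization, Psmc4, Psmc5 and Psmc6 were not called (-0.12, adjusted p = 0.559, then -0.35, adjusted p = 0.0311, and -0.39, adjusted p = 0.0127). Cumulus minus IVF was called higher for all 6, and this held under all 3 scalings.

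Psmc5 ranged from 1.80 to 2.61 in TSA(–) (median 2.22). Psmc5 was at 1.39, 1.43, 1.74 and 1.80 in Spi-C 1.0 and at 1.66, 1.70, 1.96 and 1.98 in Spi-C 0.1. Both Spi-C groups overlapped TSA(–). Against TSA(–), Psmc5 was at -0.67 (SE 0.147, adjusted p = 0.00158) in Spi-C 1.0 and -0.44 (SE 0.147, adjusted p = 0.0336) in Spi-C 0.1, and the former call was lost with the mean of its probes (-0.55, adjusted p = 0.0119) and with replicate number as a block (-0.53, adjusted p = 0.0322).

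The non-ATPase subunits of the 19S particle bind ubiquitin, remove it and hold the particle together. Psmd14, the deubiquitinase of the lid, ranged from -1.28 to -0.10 in OC (median -0.17), from 2.31 to 3.33 in IVF (median 2.97), from 3.89 to 4.41 in TSA(–) (median 4.15) and from 3.94 to 4.65 in TSA(+) (median 4.26). Psmd14 was at 3.75, 4.29, 4.32 and 4.35 in Spi-C 1.0, at 3.77, 4.16, 4.29 and 4.42 in Spi-C 0.1 and at 5.22, 5.26, 5.46 and 5.58 in Cumulus. Every IVF array lay above all OC arrays and below all other arrays. The difference was 3.28 (SE 0.18, adjusted p = 5.35e-16) for IVF minus OC, 1.21 (SE 0.175, adjusted p = 3.97e-06) for TSA(–) minus IVF, 1.35 (SE 0.187, adjusted p = 2.16e-06) for TSA(+) minus IVF and 2.46 (SE 0.209, adjusted p = 1.32e-11) for Cumulus minus IVF. The brightest of its probes is reported; another probe was called lower in IVF than in OC.

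Psmd13, a lid subunit, ranged from -7.50 to -6.29 in OC (median -7.12), from -7.47 to -5.36 in IVF (median -6.16), from -5.33 to -3.94 in TSA(–) (median -4.73) and from -5.48 to -4.53 in TSA(+) (median -4.80). Psmd13 was at -5.49, -5.02, -4.57 and -4.57 in Spi-C 1.0, at -5.46, -4.71, -4.65 and -4.56 in Spi-C 0.1 and at -4.81, -3.54, -3.27 and -2.55 in Cumulus. In TSA(–), all arrays lay above all IVF arrays, whereas in TSA(+) they overlapped IVF. Against IVF, it was at 1.61 (SE 0.326, adjusted p = 0.000336) in TSA(–) and 1.43 (SE 0.348, adjusted p = 0.00237) in TSA(+), with 4 of 6 IVF arrays well above background; with normexp these fell to 0.25, adjusted p = 0.107, and 0.20, adjusted p = 0.214.

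Psmd8, a lid subunit, ranged from -0.08 to 1.41 in OC (median 1.07), from 1.12 to 1.53 in IVF (median 1.25), from 0.83 to 1.23 in TSA(–) (median 0.99) and from 1.17 to 1.59 in TSA(+) (median 1.39). Psmd8 was at 1.54, 1.59, 1.86 and 1.86 in Spi-C 1.0, at 1.64, 1.67, 1.72 and 1.84 in Spi-C 0.1 and at 2.54, 2.64, 2.95 and 3.26 in Cumulus. All Spi-C arrays lay above all TSA(–) and IVF arrays, and all Cumulus arrays above all others. Against TSA(–) it was at 0.70 (SE 0.115, adjusted p = 6.40e-05) in Spi-C 1.0 and 0.71 (SE 0.115, adjusted p = 5.62e-05) in Spi-C 0.1, and Cumulus minus IVF was 1.57 (SE 0.207, adjusted p = 1.18e-07). Psmd1, the scaffold of the base, ranged from 5.28 to 6.20 in OC (median 5.75) and from 1.52 to 2.09 in IVF (median 1.91). The IVF arrays all lay below all OC arrays. IVF minus OC was -3.88 (SE 0.166, adjusted p = 1.84e-18) for Psmd1 (-2.17 with quantile normalization), -2.82 (adjusted p = 5.55e-20) for Psmd2, the other large scaffold, and -1.77 (adjusted p = 3.77e-12) for Psmd7, the partner of Psmd14. Psmd4, a ubiquitin receptor, was at -1.22 (adjusted p = 1.58e-07) for IVF minus OC and 0.36 (adjusted p = 0.102) for Cumulus minus IVF, or 1.25 (adjusted p = 7.93e-07) with median centring. With quantile normalization, Psmd7 and Psmd4 were not called for IVF minus OC (-0.24, adjusted p = 0.114, and -0.25, adjusted p = 0.185).

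Psmd11, a lid subunit, ranged from 2.90 to 3.40 in TSA(–) (median 3.097). Psmd11 was at 3.49, 3.53, 3.60 and 3.60 in Spi-C 1.0 and at 3.54, 3.59, 3.77 and 3.92 in Spi-C 0.1. All Spi-C arrays lay above all TSA(–) arrays. Against TSA(–), Psmd11 was at 0.59 (SE 0.122, adjusted p = 0.000818) in Spi-C 0.1, a call lost with median centring (0.45, adjusted p = 0.0191). In Spi-C 1.0 it was at 0.44 (adjusted p = 0.009999), a call lost with median centring (0.22, adjusted p = 0.267), with no filter on dim probes, with the mean of its probes, with any of the 3 blocks, with the processed table of the authors, and without Spi-C 1.0 replicate 1 (0.44), Spi-C 1.0 replicate 2 (0.42), Spi-C 1.0 replicate 3 (0.46), Spi-C 1.0 replicate 4 (0.42), TSA(–) replicate 1 (0.41), TSA(–) replicate 2 (0.41), TSA(–) replicate 4 (0.43), TSA(–) replicate 5 (0.42), TSA(–) replicate 6 (0.45) and TSA(–) replicate 8 (0.44).

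Psmd5, Psmd9 and Psmd10 assist assembly of the 19S base, and Psmg1, Psmg2 and Psmg3 that of the 20S rings. Psmd9 ranged from 4.95 to 5.46 in OC (median 5.25), from 0.54 to 0.90 in IVF (median 0.71), from 1.62 to 2.27 in TSA(–) (median 1.89) and from 1.39 to 1.86 in TSA(+) (median 1.64). Psmd9 was at 1.48, 1.58, 1.62 and 1.69 in Spi-C 1.0, at 1.40, 1.52, 1.64 and 1.73 in Spi-C 0.1 and at -0.63, -0.50, -0.47 and -0.11 in Cumulus. Without exception, IVF arrays lay below all OC and clone arrays and above all Cumulus arrays. Between OC and IVF the difference was -4.51 (SE 0.13, adjusted p = 2.88e-22), TSA(–) minus IVF 1.22 (SE 0.126, adjusted p = 1.51e-08) and TSA(+) minus IVF 0.89 (SE 0.135, adjusted p = 9.43e-06). Cumulus minus IVF was -1.14 (SE 0.151, adjusted p = 9.79e-08), and -0.26 (adjusted p = 0.179) with median centring and -0.32 (adjusted p = 0.0809) with the mean of its probes.

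Psmd10 ranged from -0.17 to 0.51 in OC (median 0.01), from -0.88 to -0.09 in IVF (median -0.52), from -2.37 to -1.12 in TSA(–) (median -1.86) and from -2.52 to -1.57 in TSA(+) (median -1.91). Psmd10 was at -2.20, -2.03, -1.87 and -1.84 in Spi-C 1.0, at -2.29, -2.29, -1.93 and -1.61 in Spi-C 0.1 and at 1.06, 1.16, 1.57 and 1.69 in Cumulus. All IVF arrays lay above all clone arrays and below all Cumulus arrays, and overlapped OC. Against IVF, Psmd10 was at -1.33 (SE 0.19, adjusted p = 3.39e-06) in TSA(–) and -1.42 (SE 0.203, adjusted p = 3.63e-06) in TSA(+), and Cumulus minus IVF was 1.88 (SE 0.227, adjusted p = 1.97e-08). Within the 3 slides shared with IVF, it was -1.80 to -1.23 for TSA(–) and -1.65 to -1.47 for TSA(+). For IVF minus OC, Psmd10 was at -0.62, a call lost by Tukey's HSD (adjusted p = 0.0203). It was also lost with replicate number as a block (-0.58, adjusted p = 0.0185), and without IVF replicate 2, 3 or 4 or OC replicate 2, 3 or 6.

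Psmd5 ranged from 4.66 to 5.59 in OC (median 5.19), from 3.85 to 4.18 in IVF (median 3.99), from 4.30 to 4.88 in TSA(–) (median 4.66) and from 4.54 to 4.98 in TSA(+) (median 4.83). Psmd5 was at 4.79, 4.79, 4.80 and 4.83 in Spi-C 1.0, at 4.42, 4.55, 4.65 and 4.77 in Spi-C 0.1 and at 2.61, 2.71, 3.08 and 3.16 in Cumulus. Every IVF array lay below all OC and clone arrays, and all Cumulus arrays lay below all others. From OC to IVF it differed by -1.11 (SE 0.144, adjusted p = 6.51e-08), but 0.57 (adjusted p = 0.000501) with quantile normalization; TSA(–) minus IVF was 0.62 (SE 0.14, adjusted p = 0.00106) and TSA(+) minus IVF 0.79 (SE 0.149, adjusted p = 0.000159).

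Psmg1 ranged from 6.04 to 6.64 in OC (median 6.29), from 3.001 to 3.17 in IVF (median 3.04), from 3.19 to 3.75 in TSA(–) (median 3.43) and from 3.15 to 3.505 in TSA(+) (median 3.25). Psmg1 was at 2.83, 2.85, 2.87 and 2.87 in Spi-C 1.0, at 2.58, 2.65, 2.82 and 2.89 in Spi-C 0.1 and at 3.19, 3.19, 3.54 and 3.83 in Cumulus. The IVF arrays all lay below all OC arrays, and all Spi-C arrays lay below all TSA(–) and IVF arrays. For IVF against OC the value was -3.24 (SE 0.132, adjusted p = 5.56e-19), and against TSA(–) Psmg1 was at -0.60 (SE 0.104, adjusted p = 0.00013) in Spi-C 1.0 and -0.72 (SE 0.104, adjusted p = 1.29e-05) in Spi-C 0.1.

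Psmg3 ranged from 2.73 to 3.104 in OC (median 2.77), from -1.64 to -0.15 in IVF (median -0.90), from -2.02 to -0.997 in TSA(–) (median -1.63) and from -1.14 to -0.45 in TSA(+) (median -0.93). Psmg3 was at -1.76, -1.64, -0.90 and -0.84 in Spi-C 1.0, at -1.69, -1.21, -0.70 and -0.65 in Spi-C 0.1 and at 1.32, 1.39, 1.61 and 1.95 in Cumulus. Without exception, IVF arrays lay below all OC and Cumulus arrays and overlapped the clones. IVF minus OC was -3.73 (SE 0.189, adjusted p = 8.51e-17) and Cumulus minus IVF 2.43 (SE 0.219, adjusted p = 4.65e-11). TSA(–) minus IVF was -0.73 (SE 0.183, adjusted p = 0.00302), a call lost without IVF replicate 1 (-0.59) and IVF replicate 2 (-0.67), and with median centring (-0.68, adjusted p = 0.0103). Psmg2 was at 2.96 (adjusted p = 3.24e-12) for IVF minus OC.

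Psme1 and Psme2 form the PA28αβ cap, Psme3 the nuclear PA28γ cap and Psme4 the PA200 cap. Psme1 ranged from -2.88 to -1.75 in OC (median -2.48), from -1.08 to -0.03 in IVF (median -0.61), from -0.08 to 1.71 in TSA(–) (median 0.71) and from 0.56 to 1.43 in TSA(+) (median 0.90). Psme1 was at 0.55, 0.77, 0.81 and 1.06 in Spi-C 1.0, at 0.49, 0.99, 1.12 and 1.15 in Spi-C 0.1 and at 4.94, 5.01, 5.35 and 5.81 in Cumulus. All IVF arrays lay above all OC arrays and below all TSA(+) arrays, TSA(–) overlapped IVF, and Cumulus lay above all. Between OC and IVF the difference was 1.90 (SE 0.25, adjusted p = 8.43e-08) (1.17 with median centring), TSA(–) minus IVF 1.15 (SE 0.242, adjusted p = 0.000574), TSA(+) minus IVF 1.52 (SE 0.259, adjusted p = 4.62e-05) and Cumulus minus IVF 5.81 (SE 0.29, adjusted p = 6.47e-17).

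Psme2 ranged from -1.80 to -0.43 in OC (median -0.73), from 2.07 to 3.12 in IVF (median 2.50), from 2.94 to 3.58 in TSA(–) (median 3.30) and from 3.11 to 3.80 in TSA(+) (median 3.60). Psme2 was at 3.42, 3.45, 3.48 and 3.55 in Spi-C 1.0, at 2.91, 2.95, 3.38 and 3.66 in Spi-C 0.1 and at 5.36, 5.56, 5.56 and 6.04 in Cumulus. Every IVF array lay above all OC arrays, both TSA groups overlapped IVF, and Cumulus lay above all. From OC to IVF it differed by 3.40 (SE 0.209, adjusted p = 8.28e-15) and Cumulus minus IVF 3.12 (SE 0.243, adjusted p = 2.00e-12). TSA(+) minus IVF was 1.02 (SE 0.217, adjusted p = 0.000614) and TSA(–) minus IVF 0.79 (SE 0.203, adjusted p = 0.0039). The latter call was lost without IVF replicate 3 (0.71), IVF replicate 5 (0.70) and IVF replicate 6 (0.75). Within the 3 slides shared with IVF, Psme2 differed by 0.10 to 0.52 (median 0.24) for TSA(–) and 0.99 to 1.28 for TSA(+).

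Psme3 ranged from 0.33 to 1.51 in OC (median 0.87), from 1.02 to 1.53 in IVF (median 1.25), from 0.59 to 1.20 in TSA(–) (median 0.85) and from 0.08 to 0.81 in TSA(+) (median 0.52). Psme3 was at 1.25, 1.68, 1.75 and 1.79 in Spi-C 1.0, at 1.61, 1.68, 1.72 and 1.78 in Spi-C 0.1 and at -0.84, -0.67, -0.61 and -0.20 in Cumulus. The IVF arrays all lay above all TSA(+) and Cumulus arrays, overlapping OC and TSA(–), and all Spi-C arrays lay above all TSA(–) arrays. TSA(+) minus IVF was -0.75 (SE 0.173, adjusted p = 0.00146), and -0.51 (adjusted p = 0.0317) with median centring; Cumulus minus IVF was -1.82 (SE 0.193, adjusted p = 1.55e-09), and -0.93 with median centring. Against TSA(–), Psme3 was at 0.72 (SE 0.139, adjusted p = 0.000407) in Spi-C 1.0 and 0.80 (SE 0.139, adjusted p = 0.000129) in Spi-C 0.1. For IVF against OC the value was 0.37 (SE 0.167, adjusted p = 0.0483), and became called without OC replicate 7 (0.47), and with quantile normalization (0.69, adjusted p = 0.00022) and normexp (0.42, adjusted p = 0.00968), but turned to -0.36 with median centring.

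Psme4 ranged from 8.08 to 9.18 in OC (median 8.55), from 6.99 to 7.26 in IVF (median 7.13), from 7.05 to 7.28 in TSA(–) (median 7.15) and from 7.02 to 7.28 in TSA(+) (median 7.11). Psme4 was at 6.68, 6.80, 6.91 and 6.995 in Spi-C 1.0, at 6.73, 6.78, 6.79 and 6.86 in Spi-C 0.1 and at 5.70, 5.75, 5.92 and 6.31 in Cumulus. All OC arrays lay above all others, IVF overlapped the TSA clones, and all Spi-C arrays lay below all TSA(–) arrays. IVF minus OC was -1.49 (SE 0.145, adjusted p = 2.19e-10), but 0.76 (adjusted p = 3.92e-07) with quantile normalization, a reversal. Spi-C 0.1 minus TSA(–) was -0.36 (SE 0.0867, adjusted p = 0.00308), but 0.07 (adjusted p = 0.616) with quantile normalization; the call was also lost with the mean of its probes (-0.40, adjusted p = 0.0161), with replicate number as a block (-0.40, adjusted p = 0.012), and without Spi-C 0.1 replicate 3 (-0.36) and Spi-C 0.1 replicate 4 (-0.34). Spi-C 1.0 minus TSA(–) was -0.31 (SE 0.0867, adjusted p = 0.0109), not called; it became called with median centring (-0.52, adjusted p = 0.000246), normexp (-0.36, adjusted p = 0.000589), the stricter filter, Tukey's HSD and the processed table of the authors, and turned to 0.0852 with quantile normalization.

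Psmf1, the PI31 inhibitor, ranged from 3.45 to 4.38 in OC (median 3.76), from 1.34 to 1.57 in IVF (median 1.44), from 1.49 to 2.14 in TSA(–) (median 1.72) and from 1.28 to 1.74 in TSA(+) (median 1.53). Psmf1 was at 0.73, 0.89, 1.11 and 1.12 in Spi-C 1.0, at 0.84, 1.18, 1.21 and 1.25 in Spi-C 0.1 and at -0.69, -0.56, -0.49 and -0.24 in Cumulus. All OC arrays lay above all others, all Cumulus arrays below all others, IVF overlapped the TSA clones, and all Spi-C arrays lay below all TSA(–) arrays. Another probe of Psmf1 was called higher in IVF than in OC. Between OC and IVF the difference was -2.36 (SE 0.145, adjusted p = 7.39e-15) for the probe reported, and Cumulus minus IVF -1.93 (SE 0.168, adjusted p = 2.22e-11). Against TSA(–), it was at -0.79 (SE 0.128, adjusted p = 5.25e-05) in Spi-C 1.0 and -0.64 (SE 0.128, adjusted p = 0.000619) in Spi-C 0.1; with the mean of its probes these were -0.20, adjusted p = 0.429, and -0.08, adjusted p = 0.784. Of the 2 genes that only share the prefix, Psmc3ip, which acts in meiotic recombination, was at 5.65 (SE 0.526, adjusted p = 8.82e-11) for IVF minus OC and -3.41 (SE 0.611, adjusted p = 1.45e-05) for Cumulus minus IVF, and Psme3ip1, which binds Psme3, at -1.62 (SE 0.115, adjusted p = 2.17e-13) for IVF minus OC.

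Genes that act with the proteasome were counted in the same way. Over all genes, 27.9% were higher and 44.2% lower for IVF minus OC, 29.9% and 34.5% for Cumulus minus IVF, 10.6% and 13% for TSA(–) minus IVF, 10.8% and 13.7% for TSA(+) minus IVF, and 7.62% and 7.69% were lower in Spi-C 1.0 and Spi-C 0.1 than in TSA(–). Of 21 regulators and partners, with Ddi2 and Paaf1 not analysed here, IVF minus OC had 6 higher and 13 lower, turning to 9 and 3 with quantile normalization, and Cumulus minus IVF had 9 higher and 5 lower. For the same genes TSA(–) minus IVF had 2 higher and 4 lower, and TSA(+) minus IVF 1 higher and 2 lower, turning to 3 and 0 with median centring. The Spi-C 1.0 and Spi-C 0.1 clones had 5 and 6 of these lower than TSA(–). Nfe2l1, which drives proteasome genes when the proteasome is impaired, was at -1.84 (adjusted p = 4.67e-13) for IVF minus OC, -0.64 (adjusted p = 0.000413) for TSA(–) minus IVF and -0.58 (adjusted p = 0.000412) for Spi-C 1.0 minus TSA(–). Of 10 genes of ubiquitin and its activation, IVF minus OC had 2 higher and 7 lower (quantile normalization: 5 and 3), and Cumulus minus IVF 4 higher and 5 lower (median centring: 5 and 4). Of 7 genes of antigen processing, with Nlrc5 not analysed here, Cumulus minus IVF had 6 higher and 1 lower, IVF minus OC 2 higher and 3 lower, and each TSA group against IVF 1 higher and 1 lower. Tap1 and Tap2 were at 3.12 (adjusted p = 7.78e-06) and 2.80 (adjusted p = 0.000105) in Cumulus minus IVF, and B2m at 3.90 (adjusted p = 4.89e-15) there. Tap1 was well above background on 3 of 6 IVF arrays, so the size of its difference is not fixed by these arrays. Single genes of these lists were read under the scaling to the 75th percentile alone. The shares of all genes are for that scaling too, so counts of these lists under other scalings cannot be set against them.

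For each member, the 7 group means were set against the median of the other members. The Pearson r with that median was -0.94 for Psmb11, -0.73 for Psme3, -0.63 for Psmd5, -0.35 for Psmf1 and -0.32 for Psma4, the lowest 5, and 0.94 for Psmd7 and 0.94 for Psma5, the highest 2. With 7 groups, of which 4 are clones, r is a description only.

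Some members lie next to each other in the genome. Psmb9, Tap1, Psmb8 and Tap2 are adjacent on chromosome 17, Psmb5 and Psmb11 on chromosome 14, and Psme1 and Psme2 are separated by Emc9 on chromosome 14. Psmb5 and Psmb11 had opposite differences in Cumulus minus IVF, given above. In windows of 300 bases, 250 before and 50 after each RefSeq start, both strands were searched for the letters of 3 elements, in 42 windows of 39 member genes and in all 32851 windows. TGAC, 3 bases of any kind and GC, the core of the antioxidant response element, bound by Nfe2l1, was in 14.3% of member windows and 12.4% of all; CCAAT, bound by NF-Y, in 33.3% and 37.4%. CCGGAAG, a core found in some sites of ETS factors, the family of Spi-C, was in 35.7% of member windows (15 windows of 14 genes) and 8.86% of all. Whether Spi-C itself prefers this core was not tested. These matches describe letters, and binding was not tested. Of 12 genes with this core before the start, 5 were picked as examples, Psma6, Psme3, Psme4 and Psmg1 with it on the strand of the gene and Psmc1 on the opposite strand, with 20 bases on either side (GRCm38.p6, RefSeq):
Psma6, chr12:55398673-55398719, + strand: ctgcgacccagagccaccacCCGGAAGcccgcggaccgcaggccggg
Psme3, chr11:101316086-101316132, + strand: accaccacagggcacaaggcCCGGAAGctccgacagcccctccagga
Psme4, chr11:30771702-30771748, + strand: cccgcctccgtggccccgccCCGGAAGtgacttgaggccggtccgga
Psmg1, chr16:95991003-95991049, - strand: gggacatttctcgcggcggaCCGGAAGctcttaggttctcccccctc
Psmc1, chr12:100110154-100110200, + strand: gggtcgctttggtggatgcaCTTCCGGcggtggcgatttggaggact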

How the data were processed

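The unit of every value is scanner intensity as the authors deposited it, processed by Agilent Feature Extraction 9.5.3.1 or 10.5.1.1, taken as log2, from which the array's own 75th percentile was subtracted. Of 41174 probes that are not controls, 39520 with an intensity of at least 10 on at least 1 embryo array were tested, and 1820 values of outlier spots were treated as missing. Probes were mapped to genes by RefSeq accession, which gave 23374 probes with a single symbol, and the brightest probe over all arrays stands for a gene. The authors' processed table holds the same values as log2 minus the 75th percentile and minus a constant of each probe: over 41174 probes, 100% of values lay within 0.1 of this and 43.61% within 0.01. It is centred on the median of each probe, and the medians of its columns ran from -0.2974 to 1.077.

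Groups were compared with limma 3.58.1 (lmFit, contrasts.fit, eBayes) in R 4.3.3, with statmod 1.5.0 for blocks, in 2 fits: OC, IVF, TSA(–), TSA(+) and Cumulus, and IVF, TSA(–), TSA(+), Spi-C 1.0 and Spi-C 0.1. P-values were adjusted by Benjamini and Hochberg over all 39520 probes, and the limma step was tested on simulated data. Tables and figures were made with Python 3.11.15, pandas 2.3.3, numpy 2.4.6 and matplotlib 3.10.9. Genes are named by a rule fixed before the values reported here were computed, though earlier results of these data were known when the members were listed: per comparison the 5 called members with the largest positive and the 5 with the largest negative log2 difference, the catalytic and inducible beta subunits, the activators, any role group called throughout or not at all, and the 5 genes with the lowest correlation with the other members. Values of each array are given for genes named in at least 2 comparisons or for their pattern, and members beyond the rule were named after their values were seen. The members and the lists of related genes and markers were chosen with earlier results of these data known. The alternatives were other scalings (median of the array, quantile normalization), normexp background correction (offset 50), the processed table itself, no filter on dim probes, a stricter filter, Tukey's HSD after a one-way test, an adjusted p under 0.05, the mean of all probes of a gene, slide, scan day or replicate number as a block, and leaving out each array in turn. Depth was read as the 75th percentile and as the share of probes well above background. Identities of protein pairs were not analysed here.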

Additional observations from a re-analysis of the deposited data

Results flagged for a closer look

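Of 161 groups of arrays over 23 genes, 4 (2.48%) had an array far from the others by Dixon's test, where chance alone gives about 1 in 20 groups. Psma4 in TSA(–) was highest in replicate 6, at 2.755, with the next array at 2.364. Psmd13 in Spi-C 0.1 was lowest in replicate 1, at -5.455, with the next at -4.712. Psmd14 in OC was lowest in replicate 4, at -1.281, with the next at -0.4709, and in Spi-C 1.0 it was lowest in replicate 2, at 3.75, with the next at 4.29. Explanations were not tested.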

How the results depend on the processing

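Under median centring of the arrays, the members' median difference moved to -1.50 for IVF minus OC, 2.71 for Cumulus minus IVF, 0.714 for TSA(+) minus IVF, 0.252 for TSA(+) minus TSA(–), -0.133 for Spi-C 1.0 minus TSA(–) and -0.170 for Spi-C 0.1 minus TSA(–), and the counts to 3 lower for Cumulus minus IVF, 1 lower for TSA(+) minus IVF, and 2 higher for each of Spi-C 1.0 and Spi-C 0.1 minus TSA(–). With quantile normalization the median was 0.148 for IVF minus OC, with 15 lower, 0.172 for Spi-C 1.0 minus TSA(–) and 0.155 for Spi-C 0.1 minus TSA(–). The counts under these 2 scalings have no shares of all genes beside them, so a shift of members cannot be told from one of all genes. Quantile normalization also reversed Psme4, to 0.764 for IVF minus OC and to 0.0724 for Spi-C 0.1 minus TSA(–). For TSA(+) minus TSA(–), 1 member was higher by Tukey's HSD and 1 at an adjusted p under 0.05. As a replicate block, replicate number gave 2 higher and 2 lower for Spi-C 1.0 minus TSA(–), although arrays of the same number were not alike (r from -0.094 to 0.084). The cause of these changes was not tested. Leaving out each array in turn, the counts of members higher and lower ran from 15 to 17 and 24 to 25 for IVF minus OC, 35 to 36 and 7 to 7 for Cumulus minus IVF, 17 to 19 and 2 to 3 for TSA(–) minus IVF, 17 to 20 and 2 to 3 for TSA(+) minus IVF, 3 to 6 and 4 to 6 for Spi-C 1.0 minus TSA(–), and 3 to 6 and 4 to 6 for Spi-C 0.1 minus TSA(–); they were 0 and 0 throughout for TSA(+) minus TSA(–) and between the concentrations. Over the genes named in each comparison and all alternatives, 2786 values kept direction and side of the threshold, 70 lost the call, 16 gained it, 33 without a call changed sign and 2 reversed. Genes named for their pattern alone are outside this tally, and of these Psmd5 went from -1.11 to 0.57 (IVF minus OC) with quantile normalization. Signal limits OC most, where 57.6% of probes (median) were well above background.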
